A study of Rattus norvegicus with 88 samples.

Results

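rno-miR-122, the 5′ arm of the hairpin encoded by the rat gene Mir122, was followed in the livers of male and female F344 rats from 2 to 104 weeks of age. It is 1 of 677 miRNAs on the arrays and 1 of the 314 detected on at least 1 of them, and it was taken by its name in the array annotation and joined across arrays by its probes. On every one of the 88 arrays it gave the brightest signal.

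miR-122 is the miRNA most characteristic of hepatocytes. It is transcribed under the control of hepatocyte transcription factors, its precursor is cut by Drosha and Dicer, and the 5′ arm is the one loaded into the silencing complex. It is known for repressing genes that are silent in mature liver and for its part in cholesterol and fatty acid metabolism, and it is released into blood when hepatocytes are damaged.

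The mature arms and the hairpin are shown because both arms were measured on the same arrays and because the seed, bases 2 to 8, sets which transcripts a miRNA can pair with. The sequences and positions are those of RefSeq on rat build GRCr8. In the mature arms the capitals mark the seed, and in the hairpin they mark the 2 mature arms.
rno-miR-122-5p: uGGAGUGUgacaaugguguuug
rno-miR-122-3p: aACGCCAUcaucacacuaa
Mir122 hairpin: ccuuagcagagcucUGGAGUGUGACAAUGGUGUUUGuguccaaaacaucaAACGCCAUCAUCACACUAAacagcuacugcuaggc
The hairpin of 85 bases lies on the plus strand at chr18:61028817-61028901. The 5′ arm of 22 bases is at chr18:61028831-61028852 and the 3′ arm of 19 bases, called miR-122* on the array, is at chr18:61028867-61028885. The hairpin falls inside LOC134482951, annotated as a transcribed pseudogene, and inside the span of a second miRNA gene, Mir3591, which RefSeq places on the opposite strand. Of the 693 mature rat miRNAs in the RefSeq table, miR-122-5p was the only 1 with its seed, so no other listed miRNA shares it.

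RNA came from ground whole liver of untreated animals, 1 animal per array, at 9 ages: 2 weeks, then 5, 6 and 8 weeks, 15 and 21 weeks, and finally 52, 78 and 104 weeks. Each age and sex had 5 animals, except males at 5 and at 104 weeks with 4. The contrasts call animals of 2 weeks young, those between 5 and 21 weeks adult, and those from 52 weeks onward old. Whole tissue holds all liver cell types, so a change in the proportion of hepatocytes and a change in miR-122 per hepatocyte cannot be told apart.

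The arrays were scanned in 5 sessions of 1, 13, 30, 28 and 16 arrays, on 13 slides, and the total signal of miR-122 before scaling ran from 10919 to 193807. miR-122 was read by 2 probes of 10 spots each. All 1760 spots were well above background, none was saturated, and the brightest reached 23.4% of the saturation level. The second probe gave 1.61 to 2.76 times the signal of the first. Probes differ in how well they bind, so the shares of signal given here are not shares of molecules.

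As a fraction of all miRNA signal, miR-122 varied little over the life span. Its share of the summed signal of an array averaged 45.4% ± 2.40 (SD, n = 88), from 36.7% to 50.1%. At 2 weeks the share in females was 45.7%, 46.5%, 48.5%, 49.2% and 49.3%. In 2-week males it was 41.7%, 42.7%, 43.1%, 44.5% and 44.7%. Every 2-week female lay above every 2-week male, and the difference of -4.46 percentage points, male minus female, passed a two-sided exact permutation test (p = 0.00794, the smallest this test can give with 5 against 5, adjusted p = 0.0238 over 3 share comparisons). This test takes no account of the scan session. With the session as a block, the difference on log2 shares had a limma adjusted p of 0.055.

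From 5 to 104 weeks the share lay between 36.7% and 50.1% in females, with a median of 46.5% (n = 40), and between 38.2% and 47.8% in males, with a median of 44.6% (n = 38). The 2-week values fell within these ranges in both sexes. The later ages differed from 2 weeks by -1.64 percentage points in females (two-sided permutation test, p = 0.0977, adjusted p = 0.147) and by 1.07 in males (p = 0.262, adjusted p = 0.262), so no difference was shown. The value in males was 0.661 without 2-week male 3. The highest group mean in females was 48.0% ± 1.56 (SD, n = 5) at 8 weeks and the lowest was 43.8% ± 4.54 (SD, n = 5) at 104 weeks. In males the means ran from 46.1% ± 1.79 (SD, n = 5) at 6 weeks to 42.1% ± 2.84 (SD, n = 4) at 104 weeks. Females had the higher mean share at each of the 9 ages, and over 5 to 104 weeks it was 46.2% against 44.4% in males. This later difference was not tested by permutation. No neighbours in the order of the 9 means passed an exact permutation test in either sex, the lowest adjusted p being 0.984 in females and 0.931 in males. Means next to each other in sorted order are the most alike, and a lone step between groups of 5 cannot pass this adjustment. The test therefore does not show equal shares.

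**Figure D1:**
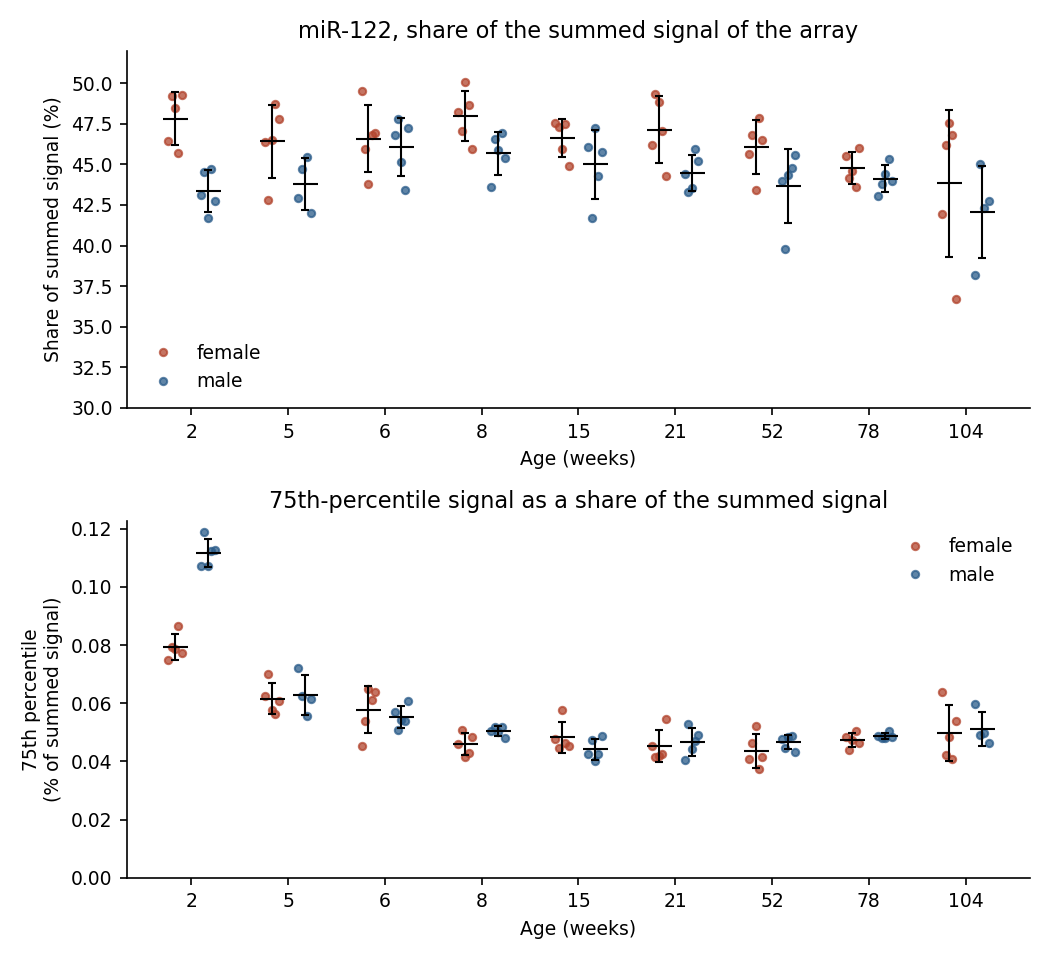
Top, share of miR-122 in the summed signal of each array (percent, axis not starting at 0) against age in weeks. Bottom, the 75th-percentile signal of each array as a percent of the summed signal. Points are arrays, females red and males blue, and black bars are the mean ± SD. The share of miR-122 at 2 weeks lies within the range of the later ages, while the 75th percentile is highest at 2 weeks and higher in males (0.107% to 0.119%) than in females (0.0750% to 0.0867%).

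The study scaled each array to the 75th percentile of the 314 miRNAs that at least 1 array detected, and on that scale miR-122 was lowest at 2 weeks. A single array detected 134 to 255 miRNAs, on average 217 in 2-week females and 223 in 2-week males against 181 and 167 at the later ages. The part of this number in the scaled level was not tested. In 2-week females its normalized intensity, the signal divided by that percentile, was 527, 617, 620, 620 and 637. In 2-week males it was 375, 379, 389, 398 and 403. The 2 groups did not overlap, and males lay 0.63 below females on the log2 scale (SE 0.12, limma adjusted p = 6.6e-06). The call for females higher than males at 2 weeks was made for 7.64% of the 314 miRNAs tested. For miR-122 it was lost with the first probe alone (-0.53, under 1.5-fold). It was also lost with normexp background correction (-0.74, limma adjusted p = 0.080) and without scaling (-0.86, limma adjusted p = 0.20).

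At 5 weeks the normalized intensity was 610, 743, 784, 804 and 864 in females and 594, 684, 715 and 818 in males. Both sets were above the 2-week males, and in females only 1 animal of 5 weeks lay within the 2-week range. By 8 weeks the females had 926, 951, 1051, 1129 and 1204 and the males 863, 898, 906, 916 and 948. Both groups lay wholly above all 10 animals of 2 weeks.

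Averaged over 5 to 21 weeks, miR-122 was higher than at 2 weeks by 0.61 on the log2 scale in females (SE 0.11, 1.52-fold, limma adjusted p = 5.9e-06) and by 1.17 in males (SE 0.07, 2.25-fold, adjusted p = 3.1e-18). In females the fold stood just past the limit for a call, and without 2-week female 5, the animal at 527, the difference was 0.56 and no longer called. A call here needs an adjusted p under 0.05 and a difference of at least 1.5-fold. A higher level in adults was called for 24.2% of all miRNAs tested in females and 29.6% in males. The test over all 9 ages gave an adjusted p of 1.6e-05 in females and 5.1e-16 in males, and it passed for 61.8% and 56.1% of all miRNAs. The change from young to adult was larger in males by 0.57 (SE 0.13, adjusted p = 0.00025), a difference between the sexes that was called for 29.9% of all miRNAs. The 2-week animals enter both this value and the 2-week difference between the sexes. On log2 shares the difference between the sexes in the change from young to adult was 0.08 (limma adjusted p = 0.28).

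**Figure D2:**
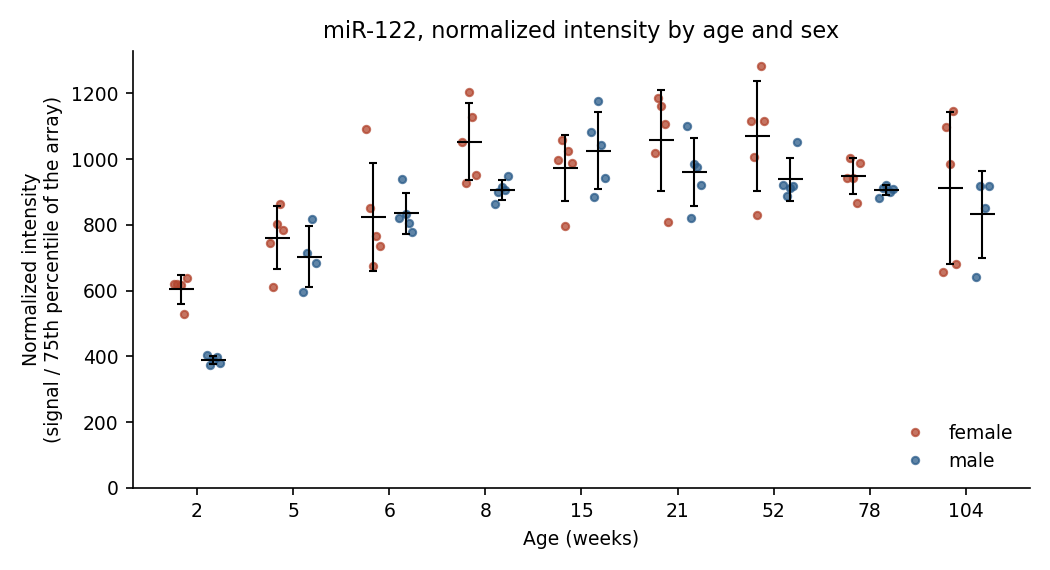
Normalized intensity of miR-122 (signal over the 75th percentile of the array, linear axis from 0) against age in weeks. Points are single arrays, females red and males blue, and black bars are the mean ± SD of 4 or 5 animals. The 2-week males sit between 375 and 403, below every other array, and the 2-week females between 527 and 637.

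Of the 8 later ages, all 8 were called above 2 weeks in males, with fitted differences from 0.85 at 5 weeks to 1.39 at 15 weeks (log2, SE 0.09 and 0.08). A miRNA was called at all 8 for 19.7% of those tested. In females 5 ages were called, namely 8, 15, 21, 52 and 78 weeks, with differences from 0.65 at 78 weeks to 0.81 at 52 weeks (log2, SE 0.14). The call at 78 weeks was lost with the earlier design file only, which kept 71 arrays and left out arrays of scan session 5. The call at 104 weeks was made with the second probe alone (0.59) and without 104-week female 1 (0.67) or 8 (0.65). Calls at 5 or more ages were made for 23.6% of miRNAs. The differences in females at 6 weeks (0.43) and at 104 weeks (0.56) had adjusted p-values of 0.0092 and 0.00076 but were under 1.5-fold, and at 5 weeks the difference was 0.33 (adjusted p = 0.057). On the summed signal, no later age was called against 2 weeks in either sex.

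Among the ages from 5 to 104 weeks, none of the 28 pairwise contrasts of miR-122 was called in either sex, against 33.4% of miRNAs with at least 1 such call in females and 24.5% in males. In females 8 of these contrasts were called with normexp background correction and 3 without scaling, each a higher level than at 5 or 6 weeks. In males 15 minus 5 weeks was 0.55 (SE 0.09, 1.46-fold, adjusted p = 1.5e-05), just under the limit, and it was called with the second probe alone (0.61) and without 15-week male 2 (0.60) or 5-week male 4 (0.62). Old minus adult was 0.07 in females (log2, SE 0.07, adjusted p = 0.66) and 0.02 in males (SE 0.04, adjusted p = 1), and this contrast was called for 5.41% and 5.73% of all miRNAs. These values were small against the weight of single arrays: with each array left out in turn they ran from 0.037 to 0.10 in females, the ends being without 104-week female 7 and 1, and from 0.0011 to 0.059 in males, without 104-week male 3 and 2. The sexes differed in that change by -0.05 (SE 0.09, adjusted p = 1), a difference called for 3.18% of miRNAs. At the 8 later ages male minus female ran from -0.21 at 8 weeks to 0.08 at 15 weeks with no call, against 20.1% of miRNAs with a call at 1 or more of these ages. Under other processing the 8-week difference was called, in opposite directions: 1.19 with the 75th percentile over all 677 miRNAs (adjusted p = 0.026) and -0.86 with normexp background correction (adjusted p = 0.042).

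In order of mean normalized intensity, females ran from 1071 ± 167 (SD, n = 5) at 52 weeks through 1057 ± 153 at 21, 1052 ± 117 at 8, 973 ± 101 at 15, 948 ± 54.2 at 78, 913 ± 231 at 104, 824 ± 163 at 6 and 761 ± 95.0 at 5 to 604 ± 43.8 at 2 weeks. Males ran from 1026 ± 116 (SD, n = 5) at 15 weeks through 961 ± 102 at 21, 938 ± 64.6 at 52, 906 ± 30.6 at 8, 905 ± 15.1 at 78, 835 ± 61.3 at 6, 832 ± 132 at 104 and 703 ± 92.2 at 5 to 389 ± 11.9 at 2 weeks. The last step, from 5 to 2 weeks, had an exact permutation p of 0.0397 in females and 0.0159 in males. No step passed after adjustment over the 8 neighbours (lowest adjusted p = 0.317 in females and 0.127 in males). In males the 2 groups of this last step did not overlap, so 0.0159 is the smallest p that 4 against 5 can give. A lone step between groups of 4 or 5 animals cannot pass this adjustment, so the failure shows no equality. In the fit over all male arrays the step from 2 to 5 weeks was called (0.85, limma adjusted p = 2.3e-10).

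The level at 104 weeks had the widest spread in both sexes. Females gave 655, 681, 985, 1097 and 1146, and males 640, 851, 919 and 920. In females 2 animals and in males 1 animal stood well below the rest. The second of those females, at 681, also had the lowest share of all 88 arrays, 36.7%, and the male at 640 had 38.2%. Without these 3 arrays old minus adult was 0.16 in females (adjusted p = 0.067) and 0.06 in males (adjusted p = 0.52), and 6 in place of 5 ages were called above 2 weeks in females.

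The rise from 2 weeks was thus present relative to the 75th percentile and not in the share of the signal. The normalized intensity is the share divided by the 75th percentile's own share, and that denominator moved with age. The 75th-percentile signal was 0.0794% ± 0.0044 (SD, n = 5) of the summed signal in 2-week females and 0.112% ± 0.0048 in 2-week males. At 5 to 104 weeks the mean of the 40 females was 0.04997% (SD 0.0082) and that of the 38 males 0.0505% (SD 0.0065). On log2 shares, adult minus young was -0.03 in females (SE 0.04, limma adjusted p = 0.62) and 0.05 in males (SE 0.03, adjusted p = 0.16), where 34.7% and 40.4% of all miRNAs were called in either direction. miR-122 was 45.4% of the sum on average and so moves its own divisor. A 1.5-fold call on shares is therefore harder to reach for it than for a dim miRNA. Against the sum without miR-122 the difference was -0.05 in females (adjusted p = 0.60) and 0.096 in males (adjusted p = 0.12). Old minus adult on log2 shares was -0.067 in females (SE 0.02, adjusted p = 0.040) and -0.057 in males (SE 0.02, adjusted p = 0.060), both under 1.5-fold.

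Scaling to the 75th percentile of the 103 miRNAs detected on all arrays gave -0.05 in females and 0.07 in males, and scaling to their median gave 0.11 and 0.26. The 75th percentile over all 677 miRNAs gave 1.38 and 2.35. On the study's scale the median adult minus young difference of the 103 miRNAs was 0.52 in females and 0.98 in males, and 45 and 36 of them lay above miR-122. Over all 314 miRNAs the median was 0.13 in both sexes.

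**Figure D3:**
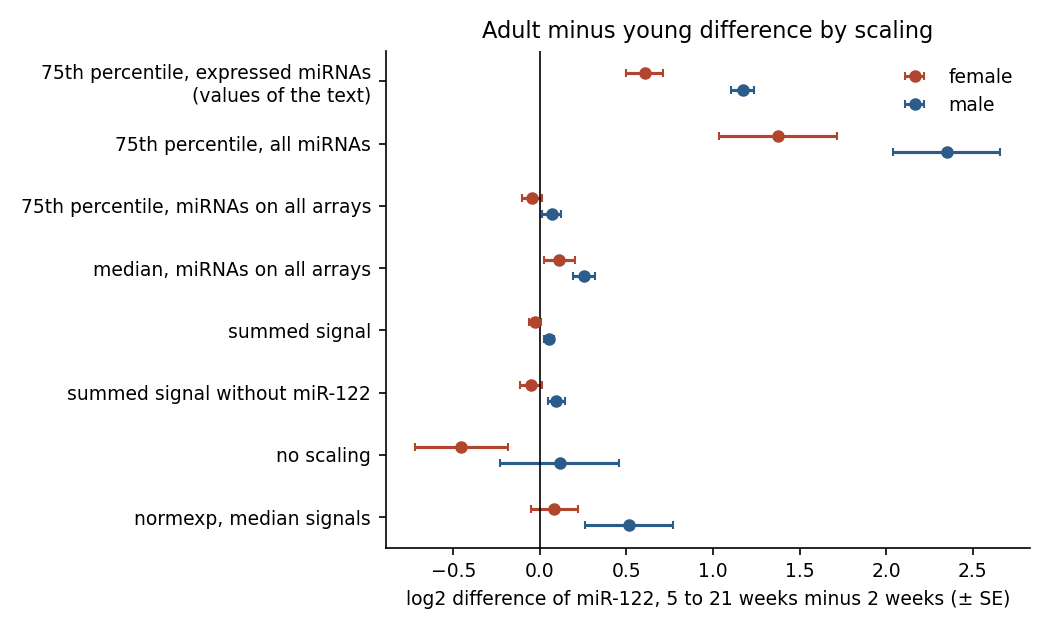
Difference of miR-122 between 5 to 21 weeks and 2 weeks (log2, ± SE) under 8 ways of scaling an array, females red and males blue. The difference is 0.61 and 1.17 on the study's scale, 1.38 and 2.35 over all miRNAs, and between -0.05 and 0.10 for the summed signal with or without miR-122.

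The 2-week difference between the sexes was below 0 on these scales too. With the 75th percentile over all 677 miRNAs it was -0.60 (adjusted p = 0.68, not called). On the others it was smaller: -0.14 on log2 shares (adjusted p = 0.021, and -0.12 with adjusted p = 0.055 when the scan session was a block), -0.24 for the 75th percentile of miRNAs on all arrays (adjusted p = 0.013) and -0.22 for their median (adjusted p = 0.16). None of these smaller values reached 1.5-fold. Of the 2-week males, 3 were in scan session 3, which held no 2-week female, and at this age the sexes shared 2 sessions, numbered 4 and 5. In session 4 the mean share was 48.9% in 2 females against 42.7% in 1 male, and in session 5 it was 46.1% in 2 females against 44.5% in 1 male.

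Marker miRNAs of other cells were followed as shares of the summed signal. The 5 biliary markers, the miR-200 family, summed to a median of 0.304% in 2-week females (0.258% to 0.324%) and 0.317% in 2-week males (0.300% to 0.396%), against 0.0860% and 0.145% in adults. The 2 endothelial markers, both arms of miR-126, had medians of 1.57% and 1.84% at 2 weeks and 0.999% and 1.004% in adults. The 5 stellate and smooth muscle markers had 1.02% and 1.25% at 2 weeks and 0.738% and 0.747% in adults. The 2 erythroid markers on the array, miR-451 and miR-144, had 0.313% and 0.526% at 2 weeks and 0.336% and 0.553% in adults, and the 5 leukocyte markers 0.571% and 0.658% against 0.721% and 0.713%. The 5 skeletal muscle markers ran from 0% to 0.456% in 2-week females and from 0% to 0.309% in 2-week males, and up to 3.097% in 1 adult male, and the 3 pancreatic markers reached at most 0.137% on any array. From young to adult, 3 of the 5 biliary, 3 of the 5 stellate and smooth muscle, 1 of the 2 endothelial and 1 of the 3 pancreatic markers were called lower in each sex, where 25.8% of all miRNAs in females and 33.1% in males were called lower. Of the others, 1 of 5 leukocyte markers was called higher in each sex, 1 of 5 skeletal muscle markers in females and 0 in males, and no erythroid marker was called in either sex. Between the sexes at 2 weeks, where miR-122 had a lower share in males, the erythroid miR-144 was called higher in males by 1.46 (log2 share, SE 0.54, adjusted p = 0.040) and miR-451 was at 0.62 (adjusted p = 0.076), with no call in the other lists of non-hepatocyte markers and 16.6% of all miRNAs called in either direction. From adult to old, where 5.41% of all miRNAs were called in each sex, miR-200b was called lower in both sexes (-0.76 in females and -0.86 in males) and miR-429 in females, and the pancreatic miR-375 was called higher in both (1.31 and 1.56). In females 3 of the 5 skeletal muscle markers, miR-1, miR-133b and miR-206, were also called lower, each detected on 23 to 35 of the 88 arrays. No erythroid, leukocyte, endothelial or stellate and smooth muscle marker was called from adult to old, and the median leukocyte share was 0.745% in old females and 0.921% in old males. The part of these cells in the values of miR-122 was not tested.

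The other bright signals were each a small part of the sum. The next 5 by mean share were miR-21 at 6.05%, a miRNA known for its rise in growth and injury, then miR-22 at 4.43%, let-7f at 3.67%, let-7a at 3.40% and miR-192 at 2.67%. In females the mean share of miR-122 was 47.8% ± 1.64 (SD, n = 5) when young, 46.96% ± 1.80 (n = 25) when adult and 44.9% ± 2.80 (n = 15) when old. In males it was 43.4% ± 1.27 (n = 5), 45.1% ± 1.69 (n = 24) and 43.4% ± 2.10 (n = 14). Over the same classes miR-21 had mean shares of 3.43%, 5.37% and 5.70% in females and 2.94%, 7.64% and 6.97% in males. On the array with the lowest share of miR-122, a 104-week female, the share of miR-21 was the highest of all, 17.3%. Without that array the mean of miR-21 in old females was 4.88% ± 0.916 (SD, n = 14), below the adult mean, and that of miR-122 was 45.5% ± 1.71.

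**Figure D4:**
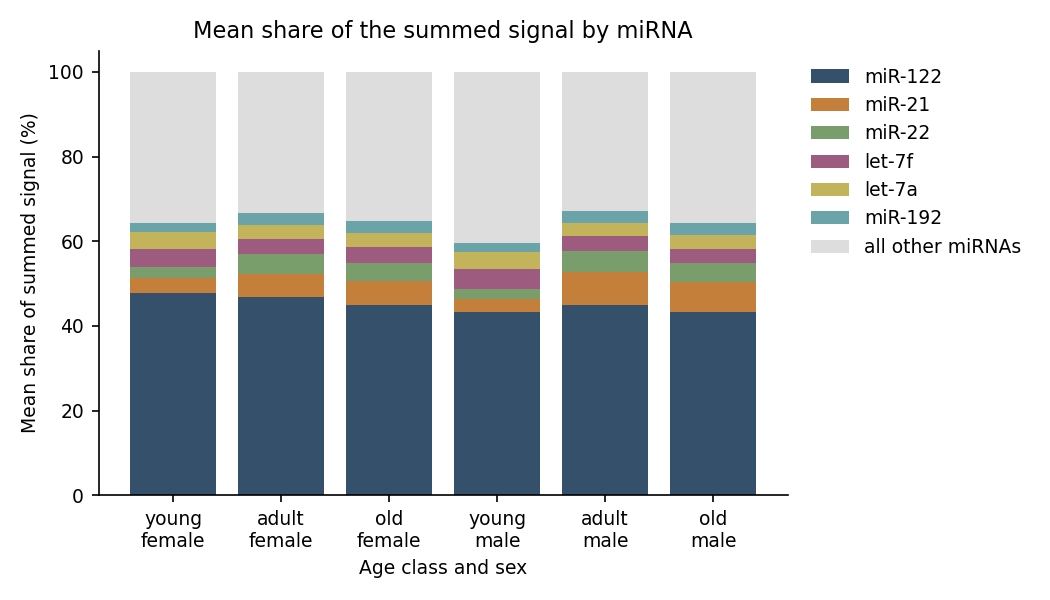
Mean share of the summed signal (percent, stacked to 100) of the 6 miRNAs with the highest mean share and of all others, in young, adult and old rats of each sex. miR-122 takes 43.4% to 47.8% in each class, while miR-21 goes from 2.94% in young males to 7.64% in adult males.

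miR-122*, the other arm of the hairpin, is the strand that is mostly degraded. In 2-week females its normalized intensity was 9.31, 10.3, 11.3, 11.3 and 15.0, and in 2-week males 6.42, 7.44, 8.42, 8.63 and 13.4. The 2 groups overlapped, and male minus female was -0.40 (log2, SE 0.19, limma adjusted p = 0.12). Adult minus young was 0.89 in females (SE 0.15, adjusted p = 2.7e-06) and 1.26 in males (SE 0.15, adjusted p = 1.7e-09). As a share of the summed signal the same contrast of miR-122* was 0.25 (adjusted p = 0.11) and 0.14 (adjusted p = 0.45), with no call.

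The ratio of the arms on one array does not depend on the scaling. The log2 ratio of miR-122 to miR-122* averaged 5.50 ± 0.29 (SD, n = 88), from 4.86 to 6.15. At 2 weeks it was 5.37, 5.54, 5.82, 5.90 and 6.06 in females and 4.86, 5.46, 5.58, 5.74 and 5.87 in males. These groups overlapped, and their difference was -0.23 (two-sided exact permutation test, p = 0.333, adjusted p = 0.5). Without 2-week male 3, the array at 4.86, it was -0.075, and without 2-week female 3 it was -0.15. The later ages differed from 2 weeks by -0.24 in females (permutation test, p = 0.0935, adjusted p = 0.28) and by -0.03 in males (p = 0.827, adjusted p = 0.827). The ratio also went with the scan session, with medians of 5.66, 5.33, 5.70 and 5.46 in sessions 2 to 5. Its value does not give the ratio of molecules, since the arms have different probes.

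**Figure D5:**
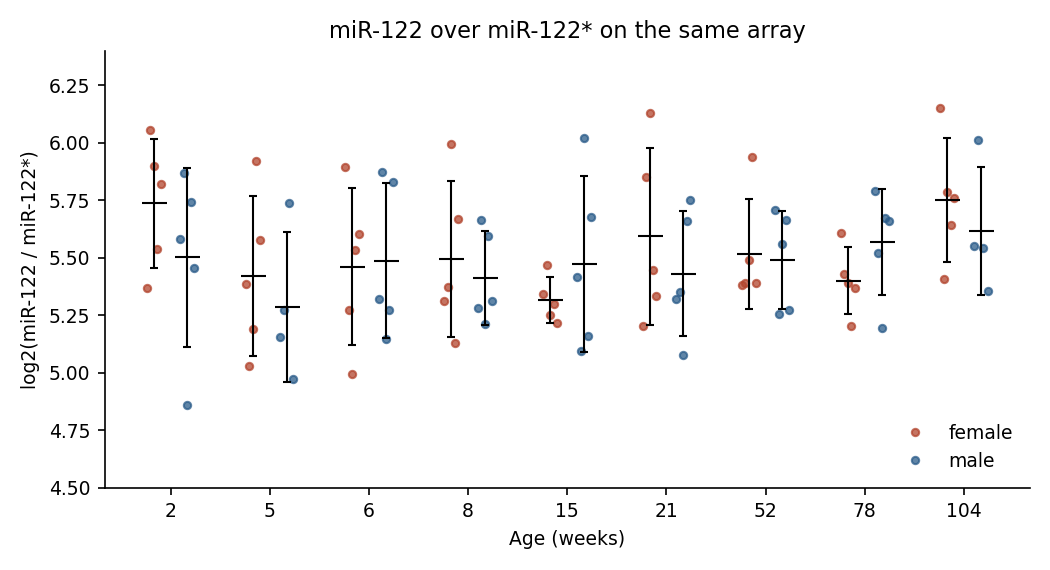
log2 ratio of miR-122 to miR-122* on each array (axis not starting at 0) against age in weeks, females red, males blue, black bars mean ± SD. The groups overlap at all ages, and 2-week females run from 5.37 to 6.06 and 2-week males from 4.86 to 5.87.

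The hepatocyte list held miR-122, miR-122*, miR-192, miR-192*, miR-194, miR-193, miR-193*, miR-365 and miR-802, and all 9 were called higher in adults than at 2 weeks in both sexes on the study's scale, where 24.2% of all miRNAs were so called for females and 29.6% for males. The 103 miRNAs detected on all arrays included 47 with this call in females and 70 in males. The median difference of the 9 was 0.997 in females and 1.45 in males (log2), beside 0.52 and 0.98 for the 103 and 0.13 over all 314 miRNAs. On log2 shares the median of the 9 was 0.36 in females and 0.33 in males, beside -0.12 and -0.14 for the 103. As shares of the summed signal, 3 of the 9 were still called in each sex, namely miR-193, miR-193* and miR-802, where 8.92% of all miRNAs in females and 7.32% in males were called higher. For miR-802, a miRNA of hepatocytes linked to glucose metabolism, the mean share rose from 0.00553% to 0.0250% in females (adjusted p = 4.5e-08) and from 0.00644% to 0.0176% in males (adjusted p = 1.0e-05). It was detected in 4 of 5 young animals of each sex, so its fitted log2 differences of 2.30 and 1.69 depend on the value set for the undetected arrays. The same limit holds in males for miR-193* (detected in 4 of 5 young and 22 of 24 adults) and miR-192* (4 of 5 and 23 of 24). miR-193 rose by 1.03 (SE 0.14, adjusted p = 1.1e-07) and 0.93 (SE 0.12, adjusted p = 4.4e-08). miR-122 itself was not among them, but its large share makes such a call harder to reach.

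Over the 78 arrays of 5 to 104 weeks, the level of miR-122 was set against each of the other 102 miRNAs detected on all arrays. The highest Pearson r was that of miR-192, expressed with miR-194 from shared precursors, at 0.89 (Spearman rho 0.87, each permutation p = 1e-05, the smallest 100000 permutations give, adjusted p = 3e-05 and 2.55e-05). It was 0.87 without the 2 arrays farthest from the median of miR-122 and 0.91, 0.93, 0.91 and 0.78 within scan sessions 2 to 5. Next came miR-22 (r = 0.83, rho 0.76), miR-194 (0.80, 0.74), let-7a (0.80, 0.86) and miR-151 (0.78, 0.81), all with the same smallest permutation p. Without the 2 farthest arrays their r was 0.80, 0.78, 0.77 and 0.76. Within the 4 sessions these r ran from 0.74 to 0.88 for miR-22, from 0.73 to 0.94 for miR-194, from 0.66 to 0.92 for let-7a and from 0.58 to 0.88 for miR-151.

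The lowest r were those of miR-200a (-0.50, rho -0.53, adjusted p = 3e-05 and 2.55e-05) and miR-200b (-0.44, rho -0.50, adjusted p = 0.000194 and 2.55e-05), markers of biliary epithelium, and miR-106b (-0.41, rho -0.34, adjusted p = 0.000552 and 0.00421), by permutation. Without the 2 farthest arrays they were -0.48, -0.43 and -0.41. On log2 shares they were -0.29, -0.22 and -0.31, and there the lowest r were those of miR-223 (-0.68), miR-142-3p (-0.65) and miR-23a (-0.63), named after their values were seen. Shares add up to a fixed total, of which miR-122 was 45.4% on average, so r values on shares are pulled down. All 3 of the first set were below 0 in each of the 4 sessions, with miR-106b from -0.76 to -0.20. miR-122* came 31st of the 102, with r = 0.53 and rho = 0.53 (permutation p = 1e-05, adjusted p = 3e-05 and 2.55e-05), 0.54 without the 2 farthest arrays and 0.44 to 0.91 within sessions.

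These correlations share a divisor. The median r over the 102 miRNAs was 0.35, 81 of them were above 0, and 61 positive and 6 negative ones passed the adjustment. On log2 shares r was 0.32 for miR-192, 0.27 for miR-22, 0.43 for miR-194, -0.16 for let-7a, 0.18 for miR-151 and 0.01 for miR-122*. The share of miR-122 also went with the brightness of the array, with r = -0.38 and rho = -0.30 against the log2 75th-percentile signal (permutation p = 0.00069 and 0.0077, adjusted p = 0.00414 and 0.0462 over 6 such relations). It was -0.35 without the 2 farthest arrays, and 0.56, -0.27, -0.46 and -0.65 within sessions 2 to 5, so it did not hold its direction within sessions.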

How the data were processed

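Total RNA of 88 livers was hybridised to 1-colour Agilent rat miRNA arrays. The authors extracted the deposited intensity values with Feature Extraction 10.7 and formed a total gene signal per miRNA from its spots, with 0.1 for undetected. The authors' deposited table holds the normalized intensity as a ratio to the array's 75th percentile. Here the scanner signals of 677 miRNAs were read, the 314 detected on at least 1 array were divided by the array's 75th-percentile signal (rank 236, undetected values at 1.84), undetected values were then set to 0.0120, and log2 was taken. The share is the signal of miR-122 over the sum of detected signals.

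Ages were fitted within each sex and sexes at each age in 1 model of 18 groups, with limma 3.58.1 in R 4.3.3 and Benjamini-Hochberg adjustment over all 314 miRNAs. Calls needed an adjusted p under 0.05 and a 1.5-fold difference (interactions and the test over ages only the adjusted p). Single values used two-sided permutation tests (scipy, exact for up to 5 against 5, otherwise 100000 permutations). Fits were tested on simulated data. The members, the lists and the rule for named miRNAs (miR-122, miR-122*, the hepatocyte list, the 5 highest and 3 lowest correlations, the next 5 by mean share, miRNAs with the same seed) were chosen with earlier results of these data known. Scan sessions are runs of scans separated by over 8 hours. The labels do not give the study's processing days, and whether the sessions are those days was not settled. On 17 arrays a later annotation names miR-122 as rno-miR-122-5p. The number of arrays limits the precision. The normexp alternative used median spot signals, since the files used here gave no mean signal within a spot. The mean processed signal is an average over the spots of a miRNA. Of the marker lists, miR-486 and miR-155 were not on the array.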

Additional observations from a re-analysis of the deposited data

Results flagged for a closer look

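The change of miR-122 from young to adult differed between the sexes, with a male minus female difference of 0.57 (log2, limma adjusted p = 0.00025). It depended on the scaling: as log2 shares it was 0.08 (adjusted p = 0.28), and with the 75th percentile of the 103 miRNAs on all arrays 0.11 (adjusted p = 0.37). With the 75th percentile over all 677 miRNAs it was 0.97 (adjusted p = 0.16) and without scaling 0.57 (SE 0.44, adjusted p = 0.69), neither of them called.

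Single animals stood apart from the other animals of their group by a gap that was large against the group's range. Chance gives about 1 such group in 20, and 5 were found among 54 sets (18 groups and 3 measures). On log2 normalized intensity, a 2-week female was at 9.04 with the others at 9.27 to 9.32, a 15-week female at 9.64 with the others at 9.95 to 10.05, and a 52-week male at 10.04 with the others at 9.79 to 9.85. By share, another 52-week male was at 39.8% with the others at 43.95% to 45.6%. For the log2 ratio of miR-122 to miR-122*, a 52-week female was at 5.94 with the others at 5.38 to 5.49.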

How the results depend on the processing

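How an array is scaled decides the comparisons with 2 weeks. In the order 75th percentile of the 103 miRNAs present on all arrays, summed signal, summed signal without miR-122, summed signal with the scan as a block, median of the same 103, adult minus young was -0.045, -0.027, -0.050, -0.030 and 0.11 in females and 0.067, 0.053, 0.096, 0.038 and 0.26 in males (log2). The interaction of sex with this change was 0.11, 0.080, 0.15, 0.060 and 0.14, and the 2-week difference between the sexes -0.24, -0.14, -0.26, -0.12 and -0.22. With all 5 of these scalings, 0 of 36 pairwise age contrasts were called in either sex and 0 of 9 ages between the sexes, by limma at a 1.5-fold difference. The male median-scaled difference of 0.26 had an adjusted p of 0.0013 but was under 1.5-fold. Quantile normalization gave 0 for every difference and count, because the brightest miRNA of an array always takes the same value.

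Other settings moved single values. The 75th percentile over all 677 miRNAs called 8 contrasts in females, and gave -0.60 at 2 weeks between the sexes (adjusted p = 0.68) and 0.97 for the interaction (adjusted p = 0.16). Its 1 call between the sexes was at 8 weeks, with males higher by 1.19. Without scaling, adult minus young was -0.45 in females and 0.11 in males, 0 contrasts were called in males and 4 in females, of which 1 put 6 weeks below 2 weeks (-1.11) and 3 put 15, 52 and 78 weeks above 6 weeks, and the 2-week and interaction values were -0.86 and 0.57 with no call and 0 of 9 ages called. Normexp gave 0.084 and 0.52 for adult minus young, 8 contrasts in females, all among 5 to 78 weeks and none against 2 weeks, 1 in males, -0.74 at 2 weeks (adjusted p = 0.080) and 0.43 for the interaction (adjusted p = 0.80), and its 1 call between the sexes was at 8 weeks, with males lower (-0.86). In females adult minus young fell just under 1.5-fold with mean processed signals (0.58) and with the earlier design file only (0.57). The first probe alone gave -0.53 at 2 weeks, also under 1.5-fold, so that 0 of 9 ages were called.

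Old minus adult reached 1.5-fold with an adjusted p under 0.05 in no setting. It changed sign in females to -0.11 with the 75th percentile over miRNAs on all arrays and to -0.067, -0.12 and -0.058 with the summed signal, the sum without miR-122 and the sum with the scan block (adjusted p = 0.039, 0.040, 0.031 and 0.071 in this order). In males it changed sign to -0.045 with the 75th percentile over all miRNAs, -0.057, -0.10 and -0.052 with the same 3 sums (adjusted p = 0.060, 0.042 and 0.10), -0.079 with the median and -0.064 with the first probe. Its interaction with sex changed sign to 0.13 with the 75th percentile over miRNAs on all arrays and to 0.0099, 0.020 and 0.010 with the 3 sums. The correlation with miR-106b went to -0.15 with median scaling (permutation adjusted p = 0.292).

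Replicate numbers were not treated as pairs: of 33 male and female pairs with the same age and number, 17 had deviations from their group means that correlated above 0.1. The replicate block gave 0.59 and 1.17 for adult minus young, -0.65 for the 2-week difference between the sexes and 0.58 for the interaction, and it changed no call. The scan as a block, the slide as a random block, the deposited table, the raw minimum, the filter of 44 arrays and the unmoderated test of the methods changed no call either. Leaving out each array in turn, adult minus young ran from 0.56 to 0.63 in females, where the call was lost without 2-week female 5 (0.56, adjusted p = 0.0001), and the log2 ratio to miR-122* in males from -0.19 to 0.062, with the sign turned without 2-week male 2 or 4 and no call in any case. That ratio ran from -0.33 to -0.075 for male minus female at 2 weeks, and the share in males, later minus 2 weeks, from 0.661 to 1.42 percentage points. Old minus adult ran from 0.037 to 0.10 in females and from 0.0011 to 0.059 in males, and its difference between the sexes from -0.086 (without 104-week female 1) to -0.0091 (without 104-week male 2). Of 36 pairwise contrasts 5 to 6 were called in females and 8 to 9 in males. With the earlier design file 4 were called in females, without 78 weeks, and the second probe alone called 6 in females and 9 in males. The settings of the probes alone, of the sum with the scan block and without the 3 low arrays were chosen after seeing the data. The cause of these differences was not tested.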
